A study of Mus musculus with 55 samples.

Results

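The genes described here are 9 genes that mark astrocytes, namely Gfap, Aqp4, Slc1a2, Slc1a3, Gja1, Aldh1l1, Aldoc, S100b and Ndrg2, out of 55487 Ensembl genes counted in mouse dorsal hippocampus and 16168 that passed the filter on low counts. The set was chosen by gene symbol and, for Ndrg2, on measured values, since Ndrg2 was already known to be higher in the younger of the diestrus mice of these data. All 9 genes passed the filter, which asked for a CPM (counts per 1000000 counted reads) over 1 in at least 10 libraries, and none needed the younger diestrus mice to pass, with the lowest value of any member in any mouse at 22.2 CPM (Aldh1l1).

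The libraries came from 55 adult C57BL/6J-background mice, 1 dorsal hippocampus per mouse, in 10 groups: males and females in metestrus, diestrus, proestrus or estrus (staged by vaginal cytology), each as wild type (WT) or Cnih3 knock-out (KO). Groups held 4 to 7 mice aged 10.86 to 23.71 weeks. KO mice lack exon 4 of Cnih3, an AMPA receptor auxiliary subunit, in every cell, while WT mice came from both B6 x B6 and CNIH3 x B6 parents and all KO mice from CNIH3 x B6 parents. Counts per gene did not separate the genotypes. Cnih3 ranged from 20.1 to 58.5 CPM (median 37.2) in 27 WT mice and from 19.4 to 43.6 CPM (median 29.5) in 28 KO mice. Total counts per library ranged from 25881295 to 63547098. The tissue is the dorsal-most part of the hippocampus in bulk, with RNA taken from the supernatant of a centrifuged lysate. All 12 of 12 listed markers of pyramidal and granule neurons were measured. In such bulk tissue fewer astrocytes and less RNA per astrocyte cannot be told apart.

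Astrocytes are glial cells that take up synaptic glutamate, buffer water and potassium, couple to each other through gap junctions and feed neurons with metabolites. Their levels of glutamate transporters and of the intermediate filament GFAP are known to respond to injury and to steroid hormones in the hippocampus. Genes named astrocyte markers cover quite different functions and need not change together.

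By function, the members fall into structure (Gfap, the glial intermediate filament), water transport (Aqp4, aquaporin 4), glutamate uptake (Slc1a2, which encodes GLT-1, and Slc1a3, which encodes GLAST), gap junctions (Gja1, connexin 43), metabolism (Aldh1l1, a folate enzyme, and Aldoc, the brain aldolase) and signalling (S100b, a calcium-binding protein also made in the oligodendrocyte lineage, and Ndrg2, of the N-myc downstream-regulated family). In GRCm38 with the GENCODE annotation, Ndrg2 lies at chr14:51905271-51914158 on the minus strand, Aldoc at chr11:78322968-78327781 on the plus strand, S100b at chr10:76253853-76261159 on the plus strand and Aldh1l1 at chr6:90486427-90600203 on the plus strand. Gfap lies at chr11:102887336-102900912 on the minus strand, Aqp4 at chr18:15389496-15410982 on the minus strand, Slc1a2 at chr2:102658659-102790784 on the plus strand, Slc1a3 at chr15:8634124-8710764 on the minus strand and Gja1 at chr10:56377330-56402513 on the plus strand. No member overlaps another.

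Per kilobase of exonic length, Aldoc had the highest median level over the 55 mice, at 390 reads per kilobase and 1000000 reads (range 292 to 709). Ndrg2 followed at 134 (range 103 to 280), Gfap at 74.4 (range 40.4 to 467) and S100b at 67.1 (range 51.7 to 117). The glutamate transporters lay below them, with Slc1a2 at 49.2 (range 36.4 to 77.2) and Slc1a3 at 29.9 (range 20.6 to 46.1). The lowest levels per length were those of Gja1 at 14.0 (range 7.56 to 19.7), Aqp4 at 9.58 (range 6.04 to 22.3) and Aldh1l1 at 7.20 (range 4.92 to 12.8). In that order the ranges of neighbours overlapped except between Aldoc and Ndrg2 and between Slc1a3 and Gja1.

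Ndrg2 and the members that correlated with it outside diestrus, Aldoc and, near the threshold, S100b, are shown by 1 promoter window each. The windows are from RefSeq on GRCm38.p6 and run from 250 bases before to 50 bases after an annotated start. The table holds 11 such windows for 8 of the 9 members. Capitals mark the nuclear factor I motif TTGGC on either strand (GCCAA is its reverse complement).
Ndrg2, chr14:51913955-51914254, minus strand, the most upstream of its 3 windows: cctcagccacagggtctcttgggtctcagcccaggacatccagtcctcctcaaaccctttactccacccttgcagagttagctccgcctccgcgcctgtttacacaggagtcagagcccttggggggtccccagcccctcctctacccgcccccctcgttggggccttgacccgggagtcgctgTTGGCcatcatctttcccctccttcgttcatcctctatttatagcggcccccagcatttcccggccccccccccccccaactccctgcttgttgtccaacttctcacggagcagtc
Aldoc, chr11:78322823-78323122, plus strand, the more upstream of its 2 windows: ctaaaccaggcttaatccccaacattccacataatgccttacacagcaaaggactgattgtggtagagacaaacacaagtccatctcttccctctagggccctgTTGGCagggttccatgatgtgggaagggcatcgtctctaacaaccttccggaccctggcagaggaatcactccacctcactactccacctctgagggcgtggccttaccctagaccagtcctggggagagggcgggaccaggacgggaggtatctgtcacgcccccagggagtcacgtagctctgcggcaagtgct
S100b, chr10:76253586-76253885, plus strand: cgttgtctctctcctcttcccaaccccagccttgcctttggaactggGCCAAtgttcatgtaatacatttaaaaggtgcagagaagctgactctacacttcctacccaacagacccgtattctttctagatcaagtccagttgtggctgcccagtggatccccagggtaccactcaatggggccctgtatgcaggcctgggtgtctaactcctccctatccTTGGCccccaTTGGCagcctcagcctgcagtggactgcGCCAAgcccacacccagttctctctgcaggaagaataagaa
The printed windows held 1 match in Ndrg2, 1 in Aldoc and 4 in S100b. Over all windows of the members 45.5% held at least 1 match, against 46.7% of 32851 windows of the same length in the genome, so the members' share was near that of all genes.

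In the 8 groups outside diestrus, Ndrg2 ranged from 355 to 588 CPM over 43 mice, Aldoc from 972 to 1783 CPM and S100b from 76.7 to 145 CPM. The KO estrus mice had the lowest group mean of Ndrg2 (8.70 ± 0.15 log2 CPM, SD, n = 6), and the highest mean outside diestrus was in KO metestrus (8.92 ± 0.18, n = 5). The other group means lay between, and neighbours in that order differed by less than the SD of either group.

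**Figure D1:**
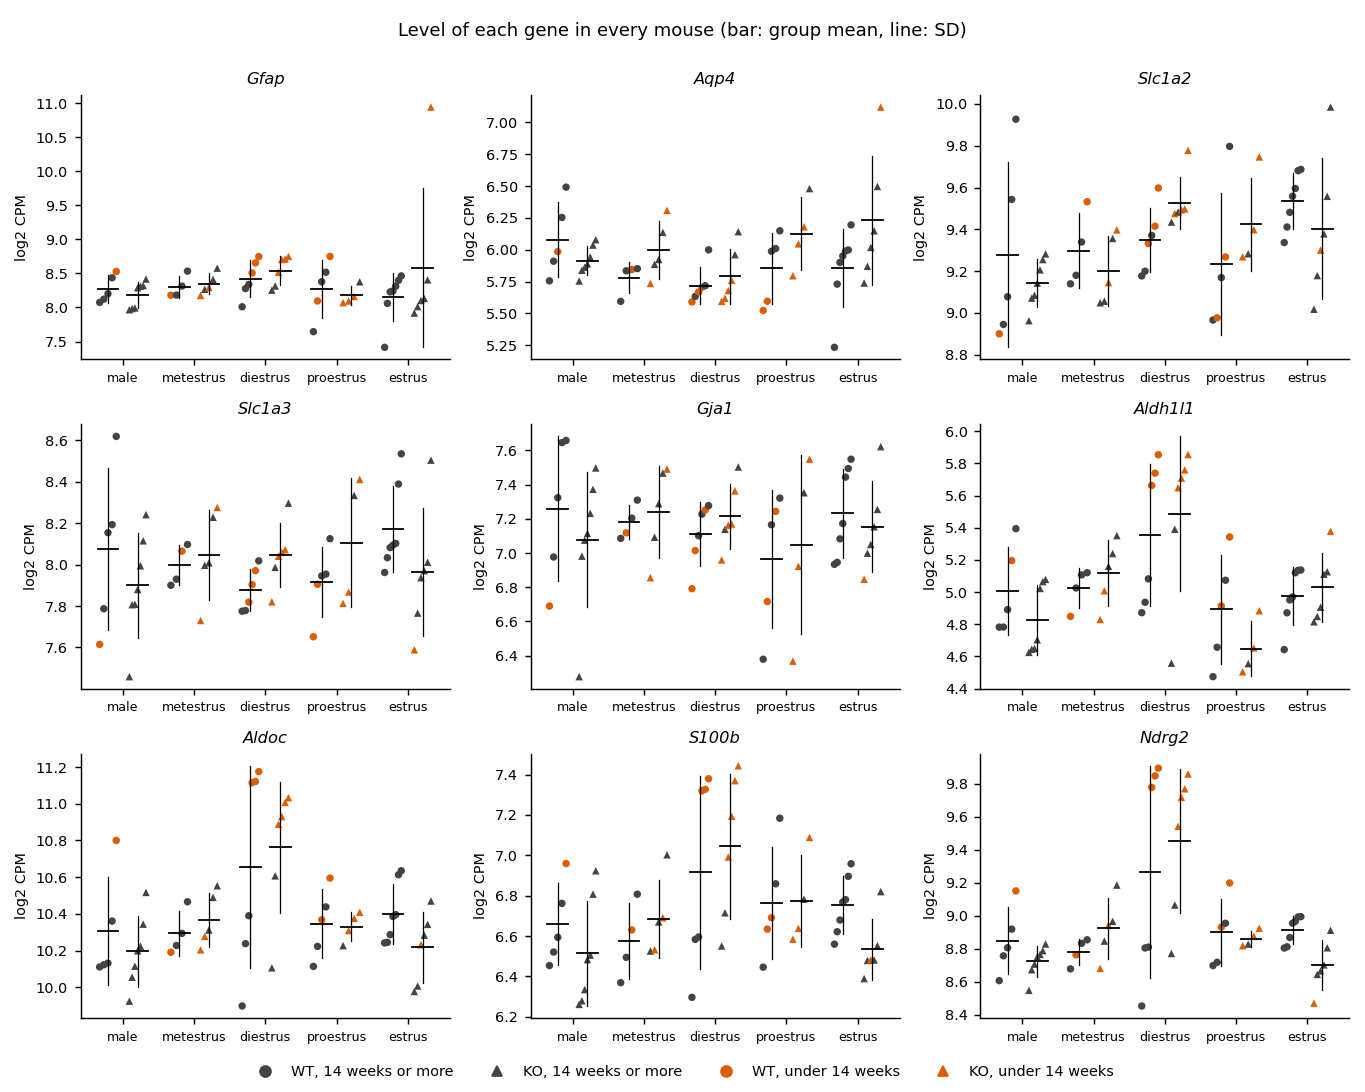
Level of each of the 9 genes in every mouse, as log2 CPM on an axis that differs between panels, by stage and sex (WT as circles, KO as triangles), with group means as bars and SDs as vertical lines. Orange marks mice under 14 weeks. The 7 younger diestrus mice stand above all 48 other mice for Aldh1l1, Aldoc and Ndrg2, and 1 KO estrus mouse stands at 1972 CPM for Gfap.

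Of the 26 comparisons of the design (12 pairs of stages, 8 of a stage against males and 6 of KO against WT), 16 compare no diestrus mouse. The fit shares 1 estimate of the spread over all 10 groups, so the diestrus mice still enter the SEs of these tests. With only the older diestrus mice in the fit, the genes called went from 124 to 44 for WT metestrus against proestrus and from 51 to 5 for KO against WT in proestrus. They went from 706 to 497 for KO metestrus against proestrus. The change was small for WT proestrus against estrus (1102 to 1120) and for KO estrus against males (1239 to 1218). In the 6 stage pairs without diestrus, 1 of 54 member tests passed an adjusted p of 0.05 in limma, that of Slc1a2 in WT, which was lower in proestrus than in estrus. Over all genes 6.82% were called in that pair, so 1 of 9 members is near the background. The values were 500, 504, 576, 616 and 890 CPM in the 5 proestrus mice and lay between 646 and 824 CPM, with a median of 754, in the 7 estrus mice. The proestrus mouse at 890 CPM, 8_2, was above every estrus mouse and had the lowest library weight of all mice (0.194). The other 4 proestrus mice were below all estrus mice. The difference of -0.43 log2 (SE 0.11, adjusted p = 0.0148) was not called without the proestrus mouse 2_3 (-0.31) or without library weights. Nor was it called by edgeR (adjusted p = 0.432) or by DESeq2 (adjusted p = 0.402).

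No other member was called without diestrus mice. In the remaining stage pairs the share of all genes called was 0.767% for WT metestrus against proestrus, 0% for WT metestrus against estrus, 4.37% for KO metestrus against proestrus, 0% for KO metestrus against estrus and 0.507% for KO proestrus against estrus. At an unadjusted p under 0.05, limma found 5 of the 54 member tests, and edgeR and DESeq2 found 4 each with no adjusted call.

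Against males, no member was called by limma or edgeR in metestrus, proestrus or estrus in either genotype, in 54 member tests of which limma had 5, edgeR 3 and DESeq2 3 at an unadjusted p under 0.05. Over all genes, 0.0309% were called for WT metestrus, 0.0309% for WT proestrus, 0.0495% for WT estrus, 0.359% for KO metestrus, 0.315% for KO proestrus and 7.66% for KO estrus. DESeq2 called Gfap alone, higher in KO estrus than in KO males by 0.94 log2 (SE 0.29, adjusted p = 0.0374), a difference that holds the KO estrus mouse described below.

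No member passed the test between KO and WT mice. In metestrus, proestrus, estrus and males, 0 of 36 member tests were called in limma, edgeR or DESeq2, with 2 at an unadjusted p under 0.05 by each. In diestrus 0 of 9 were called and 0 passed unadjusted by any of these tools, and over all groups 0 of 9 were called, with 0 unadjusted in limma and 1 each in edgeR and DESeq2. In diestrus 4 members were called when any of the younger WT mice 548, 549 or 569 was left out. Those fits estimated the library weights anew. The share of all genes called in them is not given here, so nothing is read from that count. With all mice in the fit, the share of all genes called was 0.0247% for metestrus, 0% for diestrus, 0.315% for proestrus, 0.179% for estrus, 0.00619% for males and 3.4% over all groups. None of 10 tests of whether a stage or sex difference changed between WT and KO called any member or any other gene (0% in each), with 6 of 90 member tests at an unadjusted p under 0.05 in limma, 5 in edgeR and 7 in DESeq2.

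In diestrus Aldh1l1, Aldoc, S100b and Ndrg2 had a larger SD in both genotypes than in any other group, which the other members did not. Of the members, 5 divided by the age of the diestrus mice. The 12 diestrus mice comprise 7 under 14 weeks and 5 of 14 weeks or more, and Ndrg2 was chosen on this very split, so the values of all members in it are given as a description without a test. In WT, Ndrg2 stood at 952, 878 and 921 CPM in the 3 younger mice and at 351, 449 and 447 CPM in the 3 older ones. In KO, it stood at 842, 873, 929 and 745 CPM in the 4 younger mice and at 536 and 437 CPM in the 2 older ones. The groups do not overlap in either genotype, and the 7 younger mice also lie above the highest of the 48 other mice (588 CPM). The mean difference was 1.15 log2 in WT and 0.80 in KO, a 1.99-fold difference over both.

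Aldoc, the glycolytic aldolase of astrocytes, followed the same mice. Its values were 2217, 2312 and 2227 CPM in younger and 954, 1342 and 1207 CPM in older WT mice. In KO they were 1896, 2096, 2058 and 1950 CPM in younger and 1559 and 1102 CPM in older mice. The 7 younger mice are again above all others, of which the highest had 1783 CPM, and the mean difference was 0.96 log2 in WT and 0.61 in KO.

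S100b had 160, 161 and 166 CPM in younger and 96.7, 78.6 and 95.9 CPM in older WT mice. In KO it had 146, 165, 174 and 127 CPM in younger and 93.7 and 105 CPM in older mice. Within diestrus these do not overlap (0.85 log2 in WT, 0.62 in KO), but mice outside diestrus reached 145 CPM, above the lowest younger diestrus mouse.

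Aldh1l1, the cytosolic folate dehydrogenase used as a pan-astrocyte marker, had 57.8, 53.4 and 50.6 CPM in younger and 29.3, 33.9 and 30.6 CPM in older WT mice. In KO it had 52.3, 50.2, 54.2 and 57.9 CPM in younger and 42.0 and 23.6 CPM in older mice. All 7 younger mice lie above the other 48, whose highest was 42.1 CPM, and the mean difference was 0.79 log2 in WT and 0.77 in KO. Without the older KO mouse 7_1 the KO difference was 0.35 for Aldh1l1 and 0.36 for Aldoc.

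Gfap differed less, by 0.43 log2 in WT and 0.39 in KO, with 364 to 431 CPM in the 7 younger and 258 to 324 CPM in the 5 older mice. These did not overlap within diestrus either. The glutamate transporters did overlap: Slc1a2 differed by 0.20 log2 in WT and 0.10 in KO, and Slc1a3 by 0.04 and -0.14. Gja1 differed by -0.18 and -0.16 with overlap in both genotypes, and Aqp4 by -0.13 with overlap in WT and by -0.39 without overlap in KO, where the younger mice had 48.3 to 54.2 CPM and the older 62.3 and 70.6 CPM. The members thus divided into 4 with a difference over 0.5 log2 in both genotypes, Gfap with a smaller one, and 4 near or below 0.

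Over all genes tested, 4.91% did not overlap between the 7 younger and 5 older mice with the younger higher and 9.51% with the younger lower. Within WT these shares were 20.7% higher and 23.8% lower, and within KO 16% higher and 20.2% lower. Because the split chose the set, nothing is read from the members' count (5 of 9 not overlapping over both genotypes, all higher in younger mice). By rank among 16168 genes, 0.353% were more raised than Ndrg2, 0.73% than Aldoc, 0.792% than Aldh1l1, 0.977% than S100b and 6.54% than Gfap. For the other members the share was 29.8% for Slc1a2, 50.6% for Slc1a3, 63% for Gja1 and 69.8% for Aqp4. These ranks describe the split that chose Ndrg2, so nothing is read from them either. The mice nearest to the 14-week limit were both KO: Ndrg2 was at 842 CPM in the mouse of 13.86 weeks and at 536 CPM in that of 16.29 weeks.

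Several measures moved with this split. The younger diestrus mice carry mouse numbers from 532 to 645 in the labels, while no other mouse of the series does, so age and this series of numbers cannot be told apart in diestrus. All 3 younger WT mice had CNIH3 x B6 parents, against 1 of the 3 older. RNAs retained in the nucleus, such as Malat1 (-2.21 log2 in younger diestrus mice), Snhg11 (-2.31) and Meg3 (-2.84), were lower in the younger mice, with a median of -1.68 log2 over 9 measured genes, 8 of them lower. Their mean level was 5.30 to 5.84 log2 CPM in the 7 younger, 6.73 to 7.16 in the 5 older and 5.74 to 7.20 in the 43 other mice. Per the paper, RNA was purified from the supernatant of a centrifuged lysate and not from all of the tissue. Whether nuclear material carried into the supernatant differed between mice was not tested. Mature oligodendrocyte markers had a median of -0.85 log2, with 14 of 15 lower (Cnp -0.06, Mbp -0.01). Their summed level was 3420 to 4416 CPM in younger and 3958 to 6418 CPM in older mice. Choroid plexus markers, from a tissue beside the hippocampus, had a median of 1.11 log2 with 10 of 10 higher (Ttr 3.44, Sostdc1 0.46, Kl 0.03) and summed to 139 to 1160 CPM in younger and 34.9 to 181 CPM in older mice. Total counts overlapped (52307959 to 58932939 in younger, 38769215 to 56890800 in older), while the library weights of the model had a median of 1.61 in younger and 0.494 in older mice. The 12 neuron markers summed to 11310 to 12860 CPM in younger and 9556 to 11260 CPM in older mice, which do not overlap, with 7 of the 12 not overlapping singly and a median difference of -0.28 log2 (4 higher, 8 lower). Exonic length also went with the difference, with a Spearman correlation of -0.333 across 16156 genes, which are not independent replicates. The 5 members that were higher in all younger mice measure 1.48 to 4.52 kb and the other 4 measure 6.23 to 13.13 kb. The part of these measures in the members' difference was not tested here.

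**Figure D2:**
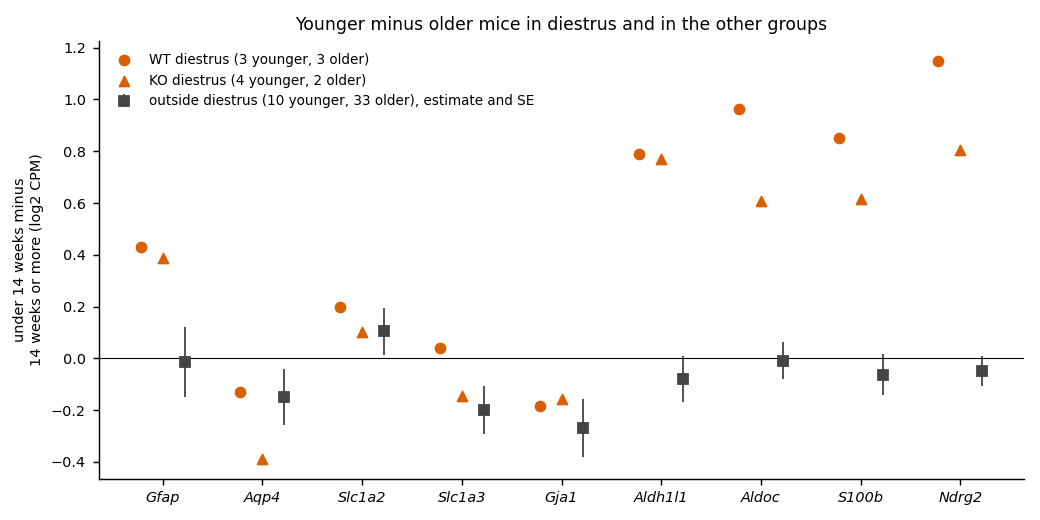
Difference between mice under 14 weeks and mice of 14 weeks or more for each gene, in log2 CPM: orange points are means in WT (circles) and KO (triangles) diestrus, squares are limma estimates with SE over 43 mice outside diestrus. Ndrg2 differs by 1.15 and 0.80 in diestrus and by -0.05 outside it.

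Whether the same genes are higher in younger mice of the other groups was tested in the 43 mice that had no part in the choice, of which 10 were under 14 weeks. These 10 were 12 to 13.57 weeks old, so the test does not reach the ages of the diestrus mice 569, 643, 644 and 645 (10.86 to 11.71 weeks). All WT estrus and KO male mice were over 14 weeks, so these groups give no comparison of the age classes. Ndrg2 ranged from 355 to 588 CPM, with a median of 478, in the 10 younger and from 374 to 583 CPM, with a median of 448, in the 33 older mice. The ranges overlap almost fully, and the limma estimate, younger minus older with the group means removed, was -0.05 log2 (SE 0.06, adjusted p = 0.745). The estimates of the other members that were high in younger diestrus mice were -0.01 for Aldoc (SE 0.07, adjusted p = 0.970), -0.06 for S100b (SE 0.08, adjusted p = 0.758), -0.08 for Aldh1l1 (SE 0.09, adjusted p = 0.706) and -0.01 for Gfap (SE 0.14, adjusted p = 0.976). Gja1 and Slc1a3 had lower levels in younger mice at an unadjusted p under 0.05 only (-0.27, SE 0.11, adjusted p = 0.219, and -0.20, SE 0.09, adjusted p = 0.295).

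Thus 0 of 9 members were called for age outside diestrus by limma, edgeR or DESeq2, with 2 at an unadjusted p under 0.05 by each, while 0.309% of all genes were called by limma.  The sign of the small estimates for Aldoc, Aldh1l1, Ndrg2, Aqp4 and Slc1a2 turned with edgeR and DESeq2. Gfap turned to 0.59 (edgeR) and 0.60 (DESeq2), both uncalled, with the KO estrus mouse of 13 weeks described below among the younger mice.

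Comparisons that use the diestrus groups contain those same mice, so they are not independent of the choice of the set, and they were computed with all 6 diestrus mice of a genotype and again with the older ones alone. With all mice, 28 of 90 member tests in the 10 comparisons with diestrus mice were called by limma, all in 7 comparisons in which edgeR called 7 and DESeq2 11 of 63. In WT, Ndrg2 was higher in diestrus than in metestrus (by 0.62 log2 as the size of the difference, SE 0.14, adjusted p = 0.00956), proestrus (0.52, SE 0.15, adjusted p = 0.0198) and estrus (0.50, SE 0.13, adjusted p = 0.00582). Aldoc was called in the same 3 comparisons and Aldh1l1 in those with proestrus and estrus. None of these 8 WT calls was made by edgeR, by DESeq2, without library weights or with age as a covariate. This gave 2 of 9 members against metestrus, where 7.24% of all genes were called, 3 of 9 against proestrus (9.66%), 3 of 9 against estrus (22.1%) and 0 of 9 against males (0.068%). For the last, limma had 4, edgeR 4 and DESeq2 5 members at an unadjusted p under 0.05.

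In KO, Aldh1l1, Aldoc, S100b and Ndrg2 were higher in diestrus than in each other stage and in males, with 0.91 log2 for Ndrg2 (SE 0.13, adjusted p = 5.63e-06) and 0.65 for S100b (SE 0.13, adjusted p = 0.000159) against estrus. The largest difference was that of Aldh1l1 against proestrus, at 0.95 log2 (SE 0.14, adjusted p = 3.86e-06). Aqp4 was lower than in proestrus (-0.35, SE 0.14, adjusted p = 0.0449) and estrus (-0.37, SE 0.13, adjusted p = 0.0303), and Slc1a2 was higher than in metestrus and males (0.41 against males, SE 0.10, adjusted p = 0.00264). Called were 5 of 9 members against metestrus, proestrus, estrus and males alike, beside 10.4%, 34.3%, 30.7% and 28.7% of all genes. The 5 calls against KO metestrus were all lost with edgeR, with DESeq2, without library weights and with age as a covariate. Gfap, Slc1a3 and Gja1 were called in none of the 26 comparisons.

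With the older diestrus mice alone (3 WT and 2 KO), 0 of 72 member tests in the 8 comparisons of diestrus with a stage or males were called in limma, with 3 at an unadjusted p under 0.05. Of all 16168 genes, 0 were called in each of the 6 comparisons with a stage, 6 in WT and 7 in KO against males, so the members' count is that of the background. The smallest adjusted p was 0.662 and the differences lay between -0.33 and 0.30 log2. Ndrg2 then differed from estrus by -0.18 in WT (SE 0.09) and by 0.20 in KO (SE 0.13). In WT, 0 members were called against metestrus, proestrus or estrus when any of the younger mice 548, 549 and 569 was left out. The difference of Ndrg2 from estrus then fell to between 0.02 and 0.05. The library weights were estimated anew in each of these fits, and their part in this fall was not tested. In KO no single mouse ended the calls of Ndrg2 or Aldoc.

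**Figure D3:**
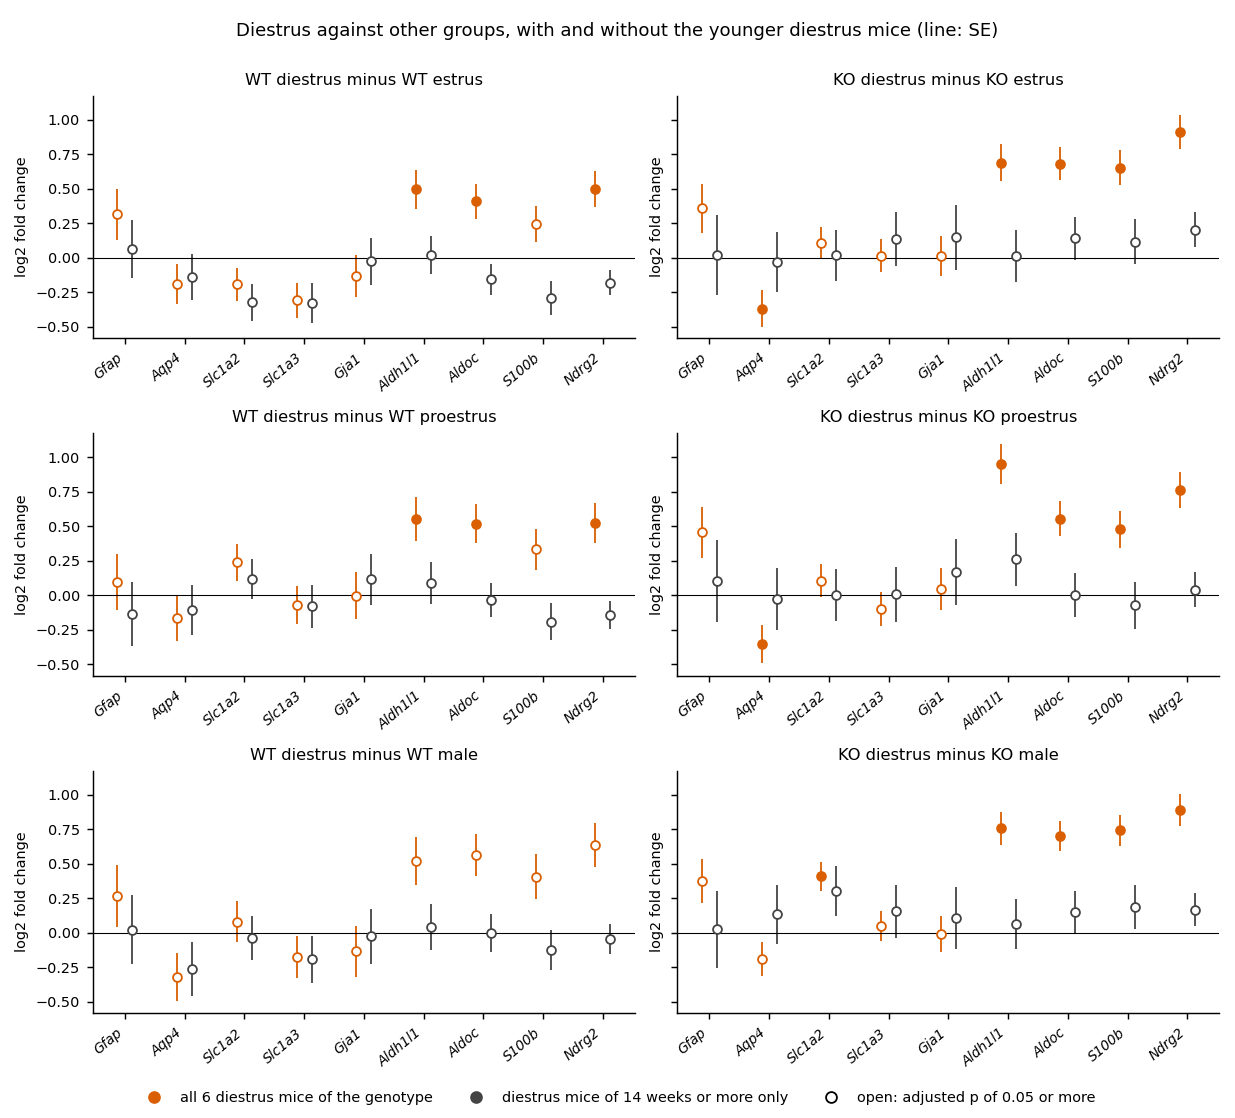
log2 fold change of each gene in diestrus against estrus, proestrus and males in WT and KO, with SEs. Orange uses all 6 diestrus mice of the genotype and grey only those of 14 weeks or more; filled points have an adjusted p under 0.05. No grey point is filled, and Ndrg2 in KO against estrus goes from 0.91 to 0.20.

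Other genes of the same pathways were counted by direction, beside 9.05% higher and 13.1% lower of all genes in WT diestrus against estrus, 11.3% and 19.3% in KO diestrus against estrus and 10.7% and 18% against KO males. Among 40 further astrocyte markers, all measured, 4 were higher and 4 lower in WT diestrus against estrus, 10 higher and 2 lower in KO diestrus against estrus, and 12 higher and 5 lower against KO males, with medians of 0.01, 0.11 and 0.08 log2. The most abundant of these per length, Cst3 (cystatin C), Mt3 and Mt1 (metallothioneins), were higher in KO diestrus than in KO estrus by 0.51, 0.31 and 0.39 log2. They were not called in WT diestrus against estrus (0.19, 0.17 and 0.17) or in KO diestrus against proestrus (0.01, -0.01 and 0.08). Against KO males Mt3 (0.31) and Mt1 (0.49) were called higher and Cst3 (0.36) was not called. Of the Ndrg family, Ndrg4 and Ndrg3, which are mostly neuronal, were higher in diestrus than in estrus in WT (0.26 and 0.27) and KO (0.30 and 0.35). Ndrg1, made by oligodendrocytes among other cells, was lower (-0.42 in WT and -0.78 in KO).

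Of 13 genes of glutamate and glutamine handling, 1 was higher and 8 were lower in KO diestrus than in KO estrus. The higher was Glul (glutamine synthetase, 0.37 log2), while Slc17a7, the vesicular glutamate transporter of pyramidal neurons, was lower (-0.58). Of 6 other connexins, 3 were lower and 0 higher in that comparison, among them the oligodendrocyte connexins Gjb1 (-1.02) and Gjc3 (-0.61). Gjb6, the other astrocytic connexin, was higher against KO males (0.39) but was not called against KO estrus (0.32). Of 13 measured reactive astrocyte genes (of 20 listed), 2 were lower and 0 higher, with Serpina3n at -0.61. The other diestrus comparisons of these lists rest on the same younger mice.

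Outside diestrus, where 43 mice share neither the younger diestrus libraries nor the choice of the set, the members split by how they varied together once group means were removed. Of 36 pairs, 6 were positively and 1 negatively correlated with adjusted permutation p under 0.05 for both Pearson's r and Spearman's rho. Closest were Slc1a3 and Gja1 (r = 0.83, rho = 0.86, both permutation p = 1e-05, the smallest the permutations can give, adjusted p = 0.00018 and 0.00036, r = 0.82 without the 2 farthest mice). Aldoc and Ndrg2 followed (r = 0.62, rho = 0.58, permutation p = 4e-05 and 8e-05, adjusted p = 0.00048 and 0.00096, r = 0.55 without the 2 farthest). Slc1a2 went with Slc1a3 (r = 0.58, rho = 0.45, permutation p = 7e-05 and 0.00271, adjusted p = 0.00063 and 0.0163, r = 0.41 without 2). Gfap went with Aldh1l1 (r = 0.56, rho = 0.62, permutation p = 1e-05 and 3e-05, adjusted p = 0.00018 and 0.00054, r = 0.57 without 2). The relation of Gfap to Aqp4 (r = 0.56, permutation p = 0.00086, adjusted p = 0.00516) rested on single mice, since rho was 0.28 (permutation p = 0.0693, adjusted p = 0.147) and r fell to 0.15 without 2. S100b and Ndrg2 had r = 0.40 and rho = 0.38 (permutation p = 0.00742 and 0.0109, adjusted p = 0.0367 and 0.0436, r = 0.53 without 2). Gja1 and Aldh1l1 had r = 0.38 and rho = 0.38 (permutation p = 0.0119 and 0.0128, adjusted p = 0.0445 and 0.0461, r = 0.34 without 2). The negative pair was Aldh1l1 and S100b, both higher in the younger diestrus mice (r = -0.36, rho = -0.39, permutation p = 0.0174 and 0.0102, adjusted p = 0.0482 and 0.0436, r = -0.28 without 2). These 43 libraries share a scaling per library, and relations between genes can follow it. The permutations moved mice across groups after the group means were removed, so their p is somewhat too small. The pairs S100b with Ndrg2, Gja1 with Aldh1l1 and Aldh1l1 with S100b, all near 0.05 after adjustment, are therefore uncertain.

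**Figure D4:**
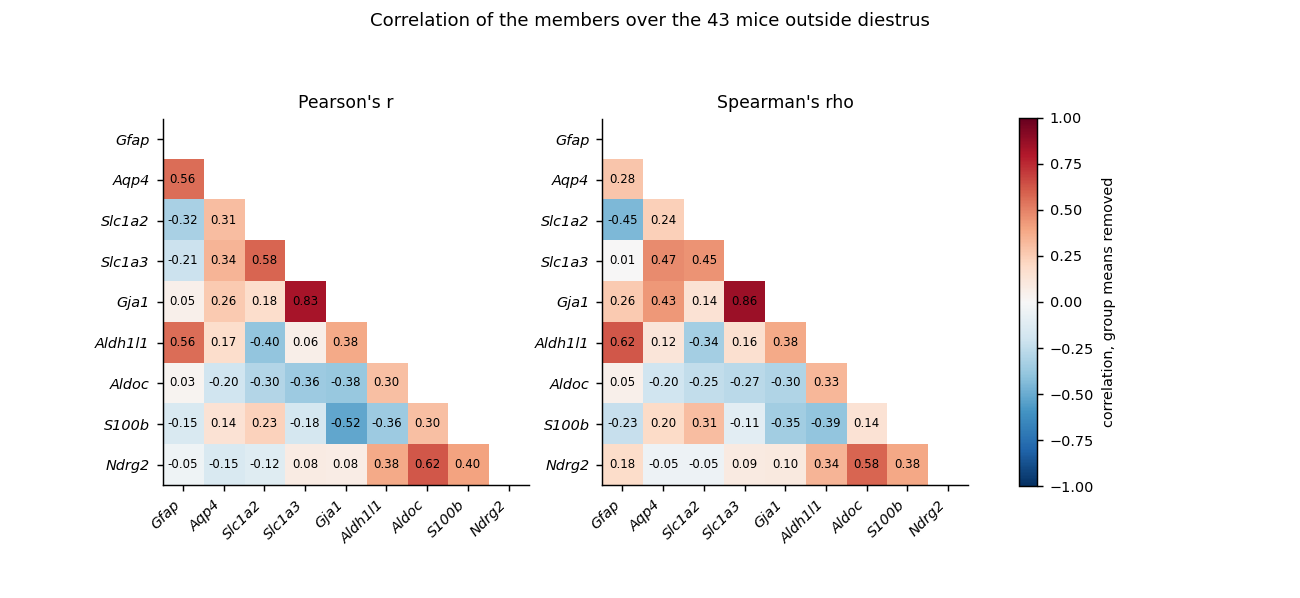
Pearson's r (left) and Spearman's rho (right) between each pair of the 9 genes over the 43 mice outside diestrus, after the 8 group means were removed; red is positive and blue negative. Slc1a3 with Gja1 (0.83) and Aldoc with Ndrg2 (0.62) are the highest values of r.

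The genes whose level over all 55 mice was most like that of Ndrg2, with group means removed, were 2900052N01Rik (r = 0.94), Asrgl1 (r = 0.93), Aldoc (r = 0.87), Scp2 (r = 0.81) and Fxyd6 (r = 0.81). These values lean on the 7 younger diestrus mice, and over the 43 mice outside diestrus the same r were 0.75, 0.71, 0.62, 0.41 and 0.21. For the mean of the other 8 members they were Serpine2 (r = 0.81), Paqr8 (r = 0.70), Papss2 (r = 0.69), Mlc1 (r = 0.67) and Sdc4 (r = 0.67), with 0.78, 0.59, 0.60, 0.65 and 0.51 outside diestrus. All are descriptions over mice that share libraries and were picked as the highest of all genes.

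The level of nuclear-retained RNA, which was low in the younger diestrus mice, was also related to the members over the 43 mice outside diestrus, in a family of 9 relations. Ndrg2 showed none (r = -0.03, permutation p = 0.844, adjusted p = 0.844, rho = -0.07, permutation p = 0.677, adjusted p = 0.677, r = -0.04 without the 2 farthest mice). The 43 mice lay between 5.74 and 7.2 log2 CPM of nuclear-retained RNA, with a median of 6.85. They therefore hardly reach the 5.3 to 5.84 of the younger diestrus mice, and no relation at those levels was tested. Aldh1l1 was higher where nuclear-retained RNA was lower (r = -0.47, permutation p = 0.0013, adjusted p = 0.0039, rho = -0.42, permutation p = 0.00495, adjusted p = 0.0149, r = -0.42 without 2), and so was Gfap (r = -0.51, permutation p = 0.00084, adjusted p = 0.00378, rho = -0.56, permutation p = 0.00016, adjusted p = 0.00072, r = -0.55 without 2). Slc1a2 went the other way (r = 0.54, permutation p = 0.00018, adjusted p = 0.00162, rho = 0.57, permutation p = 0.00015, adjusted p = 0.00072, r = 0.55 without 2). Aldoc had r = -0.27 (permutation p = 0.0833, adjusted p = 0.15, rho = -0.26) and S100b r = 0.13 (permutation p = 0.413, adjusted p = 0.531, rho = 0.11), neither passing. These permutations also moved mice across groups, so their p is somewhat too small.

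**Figure D5:**
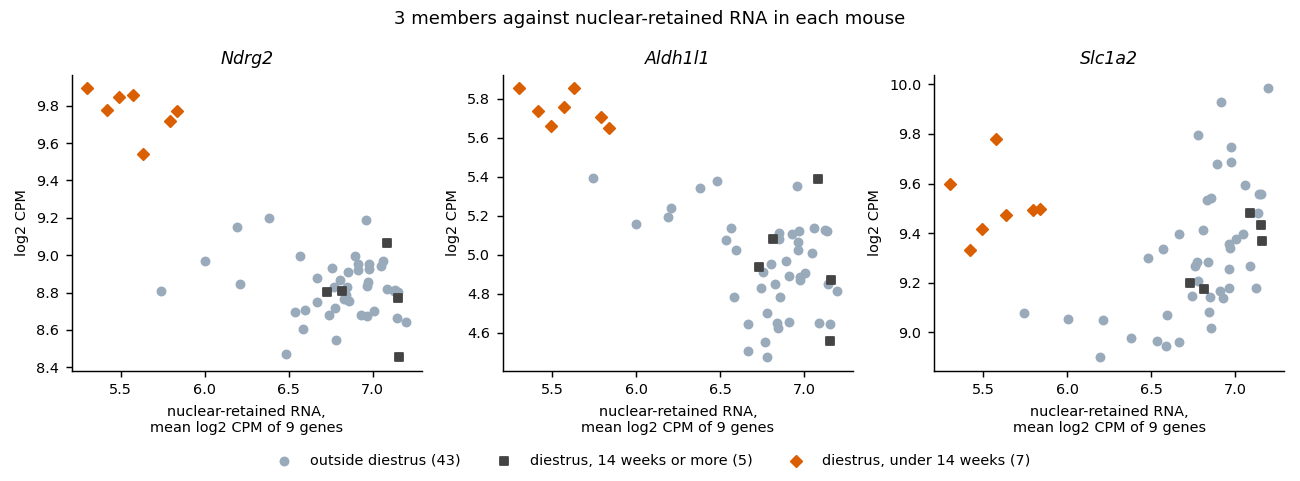
log2 CPM of Ndrg2, Aldh1l1 and Slc1a2 in each mouse against the mean log2 CPM of 9 nuclear-retained RNAs. The 7 younger diestrus mice (orange) lie between 5.30 and 5.84 on the horizontal axis, and over the 43 mice outside diestrus, with group means removed, r is -0.03, -0.47 and 0.54.

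A single KO estrus mouse, labelled 12_1 and 13 weeks old, stood apart in Gfap. It had 1972 CPM (94907 counts), against 171 to 431 CPM and a median of 314 in the 54 other mice, a ratio of 6.29 to that median. Aqp4 was also highest there, at 139 CPM against 37.6 to 90.3 CPM, a ratio of 2.34. The other members were not raised alike: Aldh1l1 was 10th highest, while Ndrg2 (355 CPM) and Slc1a3 (192 CPM) were each 54th of 55. Of the 13 measured reactive astrocyte genes, 8 were highest of all mice in this library, beside 7.17% of all genes. Among them Cd44, a hyaluronan receptor, had 21.2 CPM against at most 3.49 CPM elsewhere, Serpina3n 135 against at most 52.8 CPM, and Vim, the filament vimentin, 112 against at most 61.1 CPM. Of 40 further astrocyte markers 2 were highest and 3 lowest in this mouse. Without it no call of a member was lost in KO diestrus against KO estrus.

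Of the members, Gfap was compared by isoform, with a median of 6472 estimated counts per mouse in the transcript table. Gfap-201 held 88.0% ± 1.33 (SD, n = 55) and Gfap-202 12.0% ± 1.33 of them. In diestrus Gfap-201 held 89.8% ± 0.694 (SD, n = 7) in the younger and 87.8% ± 1.14 (SD, n = 5) in the older mice, given without a test. Among the transcripts listed for them, 1 form held nearly all estimated counts of Slc1a2 (Slc1a2-202, 99.9%), Gja1 (Gja1-201, 99.7%), Aldoc (Aldoc-202, 98.7%) and Ndrg2 (Ndrg2-202, 98.1%), and S100b had 1 listed form. Aqp4 was divided among Aqp4-212 (46.2% ± 19.2, SD, n = 55), Aqp4-201 (38.1% ± 18.3) and Aqp4-205 (13.3% ± 3.84). For Aldh1l1 and Slc1a3 the table used here held a median of only 106 and 36.5 estimated counts per mouse. Their counts per gene were far higher, at 2001 and 9262 in mouse 12_1, so their main transcripts may be missing from it. Of these few counts the main coding form listed for Aldh1l1 had 42.1% ± 17.9 (SD, n = 7) in younger and 85.8% ± 25.8 (SD, n = 5) in older diestrus mice. A form annotated for nonsense-mediated decay had 56.2% ± 19.1 and 10.7% ± 24.0. These shares are given without a test, and no change of isoform is read from them.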

How the data were processed

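Dorsal hippocampus RNA from 55 mice was sequenced. The authors deposited read counts per gene, made with STAR 2.7.9a and featureCounts 2.0.3 on GRCm38 per the submitters' processing notes, and estimated counts per transcript from Salmon 1.5.2. 1 column that matched no sample was not used. The members and all gene lists were chosen with earlier results of these data known. Counts were filtered (CPM over 1 in at least 10 libraries), 5 ribosomal genes were removed, and 16168 genes were fitted with limma 3.58.1 (voom with sample quality weights, prior count 0.5, TMM factors from edgeR 4.0.16, R 4.3.3) over 10 groups, with Benjamini-Hochberg adjustment over all genes and a threshold of 0.05. Groups came from the sample labels. The paper gives 1 hippocampus per mouse as 1 sample, so replicates are mice. Alternatives were DESeq2 1.42.0, quasi-likelihood fits in edgeR, RLE factors, no filter, unweighted voom, age as covariate, diestrus mice on either side of 14 weeks, mice of CNIH3 x B6 parents, and each mouse left out. Named genes were every member, the 3 genes of each list with the highest mean reads per kilobase and 1000000 reads, the 5 most correlated with Ndrg2 and the 5 with the mean of the other 8 members. Genes of the reactive list in mouse 12_1 and list members named outside this rule were chosen after their values were seen. 1 gene that this rule names is not reported here. Correlations used 100000 permutations of mice across groups, after the group means were removed. The fits were tested on simulated data.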

Additional observations from a re-analysis of the deposited data

Results flagged for a closer look

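In 7 of 90 groups of 4 to 7 mice, 1 per gene and group, a mouse stood apart from the rest of its group by Dixon's criterion, where chance gives about 4.5, or 1 in 20. Gfap was 170.61 CPM in the WT estrus mouse 3_2, the lowest, and 1971.7 CPM in the KO estrus mouse 12_1, the highest. Aqp4 was 48.339 CPM in the WT metestrus mouse 5_1, the lowest, and 63.96 CPM in the WT diestrus mouse 2_2, the highest. Slc1a2 was 877.91 CPM in the KO diestrus mouse 644, the highest. Gja1 was 77.56 CPM in the KO male 2590, the lowest. Aldh1l1 was 23.557 CPM in the KO diestrus mouse 7_1, the lowest. No explanation of these values was tested.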

How the results depend on the processing

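Of 29 member calls, RLE factors kept 28, CNIH3 x B6 parents 26, no filter 18, age as covariate 13, DESeq2 11, voom without weights 8, edgeR 7, diestrus mice under 14 weeks 29 and those of 14 weeks or more 1. The cause of lost calls was not tested; the older mice alone also leave 3 WT and 2 KO diestrus mice. The share of all genes called is not given beside the counts below, which include those with 1 mouse left out. Nothing about the members is therefore read from them. Counts of members called changed as follows. WT metestrus against diestrus (2) gave 0 with edgeR, DESeq2, no weights, age and older mice, 1 without filter and 4 with younger mice. WT diestrus against proestrus (3) gave 0 with these and without filter, and 5 with younger mice, and against estrus (3) gave 0 with edgeR, DESeq2, no weights, age and older mice and 5 with younger mice. WT proestrus against estrus (1) gave 0 with edgeR, DESeq2, no weights, no filter and CNIH3 x B6 parents. KO metestrus against diestrus (5) gave 0 with edgeR, DESeq2, no weights, age and older mice and 1 without filter. KO diestrus against proestrus (5) gave 2, 3 and 2 with edgeR, DESeq2 and no weights, and against estrus (5) 1, 3 and 2, and these and the comparison with males (5) gave 0 with older mice. From 0, KO metestrus against proestrus gave 1 with age and with younger mice, WT diestrus against males 4 with younger mice and with CNIH3 x B6 parents, WT proestrus against males 1 with those parents, which leave 1 proestrus mouse (8_2, the lowest library weight, 0.194), and KO estrus against males 1 with DESeq2.
Leaving out 1 mouse at a time gave 0 to 4 calls for WT metestrus against diestrus (0 without 548, 549 or 569, 1 without 13_1), 0 to 4 for WT diestrus against proestrus (1 without 2_3 or 4_1) and 0 to 5 against estrus. It gave 0 to 1 for WT proestrus against estrus (0 without 2_3), 2 to 5 for KO metestrus against diestrus (2 without 14_4, 3 without 10_1 or 532), 3 to 6 for KO diestrus against proestrus (3 without 12_4), 4 to 6 against estrus and 5 to 5 against males. It gave 0 to 4 for WT diestrus against males, 0 to 1 for WT estrus against males (1 without 2052), 0 to 1 for KO estrus against males (1 without 2593 or 8_4) and 0 to 4 for KO against WT diestrus.
With older diestrus mice alone the sign turned in WT metestrus against diestrus for Aldoc (0.0752) and Ndrg2 (0.0605), in WT diestrus against proestrus for Aldoc (-0.0343) and Ndrg2 (-0.15) and against estrus for Aldoc (-0.16) and Ndrg2 (-0.18), in KO metestrus against diestrus for Aldh1l1 (0.18), Aldoc (0.0320), S100b (0.0714) and Ndrg2 (0.0236), and in KO diestrus against proestrus for S100b (-0.0733). Slc1a2 in WT proestrus against estrus was 0.37 with CNIH3 x B6 parents, a value of 1 mouse against 1 that shows nothing of the groups. For age outside diestrus, edgeR, DESeq2 and no weights gave Gfap 0.59, 0.60 and 0.42, Aldh1l1 0.0934, 0.10 and 0.0883, Aldoc 0.0932, 0.10 and 0.0858, Ndrg2 0.0337, 0.0439 and 0.0261, and Slc1a2 -0.0544, -0.0434 and -0.0428. Gfap was 0.20 without filter and 0.0009137 with CNIH3 x B6 parents, Aldoc 0.0153 without filter, and Aqp4 0.0210 with edgeR, 0.0330 with DESeq2 and 0.004944 per week. Slc1a3 between younger and older diestrus mice was 0.008106 with RLE factors. With 1 mouse left out, Aldoc in WT diestrus against estrus ranged from -0.009127 (without 549) to 0.65, and age outside diestrus from -0.17 to 0.0885 for Gfap, -0.11 to 0.0421 for Aldh1l1, -0.0387 to 0.0680 for Aldoc and -0.0797 to 0.0436 for Ndrg2. Younger minus older diestrus ranged from -0.0004539 to 0.12 in WT, -0.30 to 0.0115 in KO and -0.0649 to 0.0656 in both for Slc1a3, and from -0.34 to 0.0248 in KO for Gja1.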
